A study of Mus musculus with 2 samples.

Results

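The genes of caveolae, of vesicle transport across the endothelium and of the fenestral diaphragm were followed through 2 single-cell libraries of mouse retinal endothelial cells. The 7 genes are *Mfsd2a*, *Plvap*, the caveolins *Cav1* and *Cav2*, and the cavins *Cavin1*, *Cavin2* and *Cavin3*. They were chosen by gene symbol, and all 7 had a row in both libraries, of 22687 gene symbols at P6 and 21736 at P15. Retinas of wild-type C57BL/6 mice were taken at postnatal day 6 (P6) or 15 (P15), and cells positive for the endothelial protein CD31 and negative for the leukocyte protein CD45 were sorted and sequenced by a 10x Genomics droplet method, with 1 library per age. No transgene, deletion or drug was involved, and the number of animals behind each library was not given in the sources used here. Values are unique molecular identifiers (UMIs), each standing for 1 captured mRNA molecule, given as CPM, the UMIs of a gene per 1000000 UMIs of those cells, or as the share of cells with at least 1 UMI.

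The retinal vessels form a barrier between blood and neural tissue. Beside tight junctions, this barrier depends on a low rate of transcytosis, the carriage of vesicles from the blood side of the endothelium to the tissue side. Many such vesicles are caveolae, flask-shaped pits of the plasma membrane built from caveolins in the membrane and from cavins that coat them on the inner side. Mfsd2a, a lipid transporter of brain and retinal capillaries, keeps caveolar transcytosis low. Plvap forms the diaphragms that span fenestrae and the necks of caveolae, and is typical of leaky vessels and of immature vessels before the barrier is sealed.

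Cells were kept when they had 200 to 3500 detected genes and a mitochondrial share of up to 5%, and when *Cd63*, *Neurod1* and *Hbb-bt* were all at 0, which left 1424 of 1984 barcodes at P6 and 1644 of 2141 at P15. These cells held 7647084 UMIs at P6 (median 4985 per cell) and 7370319 at P15 (median 4214), and 7 barcodes occurred in both libraries. Each of the 6 endothelial markers (*Pecam1*, *Cdh5*, *Cldn5*, *Flt1*, *Tek* and *Egfl7*) was found at both ages, with 1410 of 1424 P6 cells and 1626 of 1644 P15 cells holding at least 3 of them. Markers of other cells were more abundant at P15, where the summed level of 6 pericyte markers was 267 CPM against 10.9 at P6. That of 7 photoreceptor and neural markers was 105 against 20.1, that of the glial markers 65.7 against 2.22, and that of 5 blood markers 173 against 22.6. Single genes held most of the P15 pericyte and glial sums, *Rgs5* with 1781 of 1969 UMIs, in 25.6% of cells, and *Rlbp1* with 469 of 484. Only 14 of 1644 P15 cells held at least 3 pericyte markers. The blood gene *Hbb-bs* was found in 35.5% of P15 cells. *Cspg4* was at 0 in the P6 cells, and *Neurod1* was at 0 at both ages because the filter removed cells with it. The part of other cell types in the results was not tested in full. Without cells holding at least 2 pericyte markers, the ratios of P15 to P6 were 0.0575 for *Plvap*, 4.62 for *Cavin2* and 2.06 for *Cav2*, beside 0.0572, 4.61 and 2.06 with them. This step kept cells with *Rgs5* as their only pericyte marker. With 1 library per age, age and library cannot be told apart, no test was possible, and all intervals are 95% intervals for counting error only. Among the 10972 genes whose UMIs in both libraries summed to 50 or more, the median ratio of P15 to P6 was 1.09 (0.12 on the log2 scale).

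Cluster names are those of the study. The copy of its label table used here was shortened, and held the labels of 1560 P6 cells and the first 438 P15 cells it lists, the other P15 labels being not analysed here. Cluster values use all labelled cells, of which 1399 at P6 and 409 at P15 passed the filter above, so they and the library values rest on different sets of cells. The clusters were built from the genes of the same cells, and the study used *Mfsd2a* to name its Capillary cluster, so differences between clusters are descriptions. The clusters also differed in depth, from a median of 3204 UMIs per P6 Capillary cell to 7954 per P6 Proliferative cell. Venous cells, 42 at P6 and 2 at P15, were left out of comparisons of age within a cluster. All such comparisons rest on the same 2 libraries, so clusters that share a direction are not separate observations.

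The genes lie on 6 chromosomes (GRCm38, GENCODE M21), and only the caveolins are neighbours. *Mfsd2a* lies at chr4:122946850-122961188 on the minus strand, *Plvap* at chr8:71497765-71511752 on the minus strand, *Cavin1* at chr11:100956733-100970887 on the minus strand, *Cavin2* at chr1:51289126-51302960 on the plus strand and *Cavin3* at chr7:105480083-105482300 on the minus strand. *Cav2* at chr6:17281185-17289115 and *Cav1* at chr6:17306335-17341452 share the plus strand and are 17.2 kb apart. RefSeq promoter sequence (GRCm38.p6) was at hand for 5 of the 7 genes, not for *Plvap* and *Cavin3*. The 250 bases before the start are shown for *Cav2* and *Cavin2*, the members that were at least 2-fold higher at P15, and for *Mfsd2a*, whose level was near the same at both ages. Capitals mark matches, on either strand, to 5 short words searched for: CCGGAA (ETS), ACAAT (SOX), CTTTGA (TCF/LEF), GGGCGG (SP/KLF) and TGTTTA (FOX).
Cav2, chr6:17280935-17281184, plus strand: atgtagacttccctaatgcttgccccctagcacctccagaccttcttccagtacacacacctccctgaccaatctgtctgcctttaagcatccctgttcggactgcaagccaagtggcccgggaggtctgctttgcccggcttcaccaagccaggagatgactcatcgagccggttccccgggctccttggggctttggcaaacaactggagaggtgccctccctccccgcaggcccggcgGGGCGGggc
Cavin2, chr1:51288876-51289125, plus strand: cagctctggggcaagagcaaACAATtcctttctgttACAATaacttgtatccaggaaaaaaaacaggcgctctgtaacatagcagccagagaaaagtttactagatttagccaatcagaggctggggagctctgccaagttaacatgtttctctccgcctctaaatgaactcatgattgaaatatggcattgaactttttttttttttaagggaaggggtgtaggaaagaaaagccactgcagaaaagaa
Mfsd2a, chr4:122961189-122961438, minus strand: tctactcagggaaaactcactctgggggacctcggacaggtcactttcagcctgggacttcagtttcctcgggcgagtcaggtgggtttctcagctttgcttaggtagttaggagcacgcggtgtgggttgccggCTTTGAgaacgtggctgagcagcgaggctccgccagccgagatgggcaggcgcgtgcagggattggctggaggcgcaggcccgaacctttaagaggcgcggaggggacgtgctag
The *Cavin2* window held 2 SOX words and a GC content of 40.4%, below the 52.4% median of all 32851 promoter entries, some of which share a gene. The *Cav2* window (62.0% GC) held 1 SP/KLF word and the *Mfsd2a* window (61.6% GC) held 1 TCF/LEF word. The SP/KLF word also occurred before *Cavin1* and in an entry of *Cav1* but not in another, and neither gene was 2-fold higher at P15. Of all entries, 27.7% held the SOX word, 32.7% the SP/KLF word, 13.8% the TCF/LEF word, and 12% each the ETS and the FOX word, in different sets of entries. Matches of this length are a description of the letters, and the words found differed between *Cav2* and *Cavin2*.

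Between the libraries, *Plvap* was lower at P15, *Cavin2* and *Cav2* were higher, *Cavin3* and *Cavin1* were moderately lower, and *Mfsd2a* and *Cav1* were near the same level. *Plvap*, the largest of these differences, stood at 249 CPM at P6 and 14.2 at P15. *Cavin2* stood at 60.8 and 280.3 CPM, and *Cav2* at 139 and 286. Thus 2 of 7 members were at least 2-fold higher at P15, where 7.25% of all genes compared were, and 1 of 7 was at least 2-fold lower, where 5.79% were. Over all genes these shares are 795 higher and 635 lower. They became 599 higher and 803 lower when mitochondrial and ribosomal protein UMIs were left out of the totals, and 672 higher and 725 lower under a median-of-ratios scaling. Under these scalings *Cav2* stood at 1.85 and 1.94, which left 1 of 7 members, *Cavin2*, at least 2-fold higher. The 3 calls for *Plvap*, *Cavin2* and *Cav2* rest on different depths, with 105 *Plvap* UMIs at P15, 465 *Cavin2* UMIs at P6 and 1064 *Cav2* UMIs at P6.

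**Figure D1:**
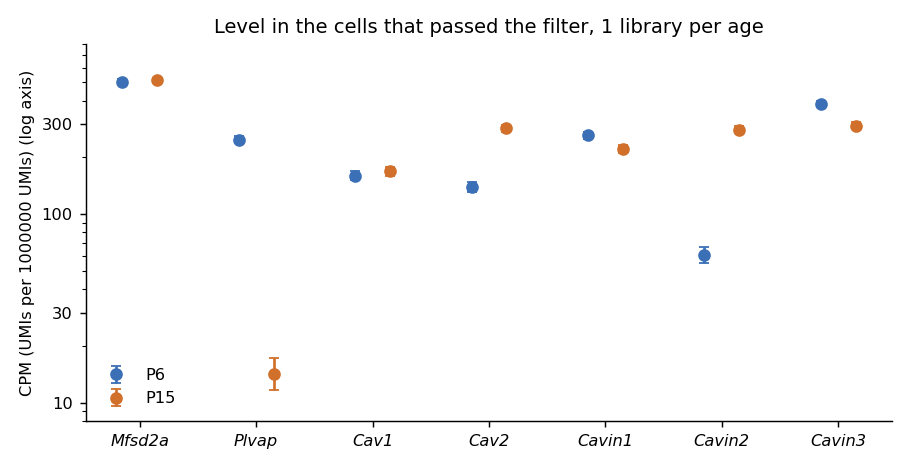
CPM (log axis) of the 7 genes in the cells that passed the filter, for the P6 library (blue) and the P15 library (orange). Points are levels and bars exact Poisson 95% intervals. *Plvap* lies at 249 and 14.2, *Cavin2* at 60.8 and 280.3, and *Mfsd2a* at 504 and 514.

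*Mfsd2a* was detected at 504 CPM at P6 (95% interval 488 to 520.4) and 514 at P15 (498 to 531), a ratio of 1.02 (0.974 to 1.07). The direction depended on the scaling, with 0.917 when mitochondrial and ribosomal protein UMIs were left out and 0.960 under median-of-ratios scaling, and with 1.20 over every barcode. At P6 77.6% of cells held a UMI and at P15 71.4%. In 21 P6 barcodes with neural markers (median 3232 UMIs), cells that should lack the gene, 0 held one, with an upper bound of 16.1%. At P15 4 of 13 barcodes with pericyte markers (median 3083 UMIs) held 1 *Mfsd2a* UMI each, a share of 30.8% (9.09 to 61.4%), whose interval lies below the 71.4% of P15 cells. At an equal depth of 3000 UMIs per cell, which left out 179 P6 and 481 P15 cells, the shares were 65.3% and 68.3%.

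The level of *Mfsd2a* varied more between clusters than between ages. At P6 it was highest in Capillary cells, at 826 CPM, and then 596 in Cap-Venous, 544 in Cap-Arterial, 534 in Venous, 505 in Stalk, 400.1 in Proliferative, 366 in Tip and 222 in Primitive cells. Arterial cells were the lowest, with 12 UMIs in 5 of 40 cells or 60.7 CPM (31.4 to 106), 0.124 of the level of the other labelled cells (0.0640 to 0.217). The steps from Capillary to Cap-Venous, from Stalk to Proliferative, from Tip to Primitive and from Primitive to Arterial exceeded counting error, and the other neighbours in this order did not. At P15 the highest level was in Cap-Arterial cells, at 813 CPM, followed by 596 in Capillary cells, a step beyond counting error (1.36-fold, 1.03 to 1.83). Arterial cells were again the lowest, at 163 CPM from 8 UMIs in 11 cells, although the step from Primitive cells (250.2) was within counting error. Within Cap-Arterial cells *Mfsd2a* was 1.49-fold higher at P15 than at P6 (1.27 to 1.75), whereas it was lower within Cap-Venous cells (ratio 0.788, 0.701 to 0.885) and Capillary cells (ratio 0.721, 0.545 to 0.941). The clusters thus differed in direction, a difference that was not tested.

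*Plvap* was 17.5-fold lower at P15 (14.4 to 21.5), on 1905 UMIs at P6 and 105 at P15, and stood 18th from the lowest ratio among the 10972 genes. The ratio of P15 to P6 was 0.0572, and 0.0918 when each cluster had equal weight. At P6 52.3% of cells held a UMI and at P15 5.29% (4.26 to 6.49%). Of the 87 P15 cells with *Plvap*, 76 held 1 UMI, 8 held 2 and 3 held 3 or more. Among barcodes with neural markers, 2 of 21 held a *Plvap* UMI at P6 (9.52%, 1.17 to 30.4%) and 0 of 4 at P15, and 0 of 13 P15 barcodes with pericyte markers held one (up to 24.7%). These P15 barcodes were too few to set a background for the P15 share, which lies inside their intervals. With predicted labels, the P15 level differed between clusters beyond counting error, at 26.6 CPM in Cap-Arterial cells (18.5 to 37.0) and 9.80 in Cap-Venous cells (6.78 to 13.7). The P6 share of 52.3% lay above the interval of the neural barcodes. Thinning to 3000 UMIs per cell gave 39.4% and 3.87%.

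At P6 *Plvap* was found in all 9 clusters. Cap-Arterial cells had the highest level, 536 CPM (487 to 588) in 70.4% of cells, 2.59-fold above the other labelled cells (2.33 to 2.87). Capillary cells followed at 309.9 and Primitive cells at 248, both steps being beyond counting error, and the remaining 6 clusters lay between 167 in Arterial and 207 in Tip cells with no step beyond it. *Plvap* therefore peaked in Cap-Arterial cells and not in the neighbouring Arterial cells, which were 3.21-fold lower (2.25 to 4.72). The step from Capillary to Primitive cells was small (1.25-fold, 1.01 to 1.53). Among P6 cells that passed the filter, the 5% with the most *Plvap* held 33.4% of its UMIs. The intervals do not cover this spread between cells. At P15 no labelled cluster held more than 7 *Plvap* UMIs. Within clusters the level was lower at P15 in 8 of 8, beyond counting error in 7, with 23.2-fold in Cap-Arterial cells (11.2 to 58.0) and 35.9-fold in Cap-Venous cells (13.9 to 132). Proliferative cells held 345 UMIs at P6 and 0 at P15, at least 7.49-fold lower with 3 counts taken for the cluster's 0, and at least 6.06-fold by the wider 95% interval used for the other ratios. In Arterial cells the ratio was 0.488 (0.126 to 1.37), from 33 UMIs in 40 cells and 4 UMIs in 11 cells.

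**Figure D2:**
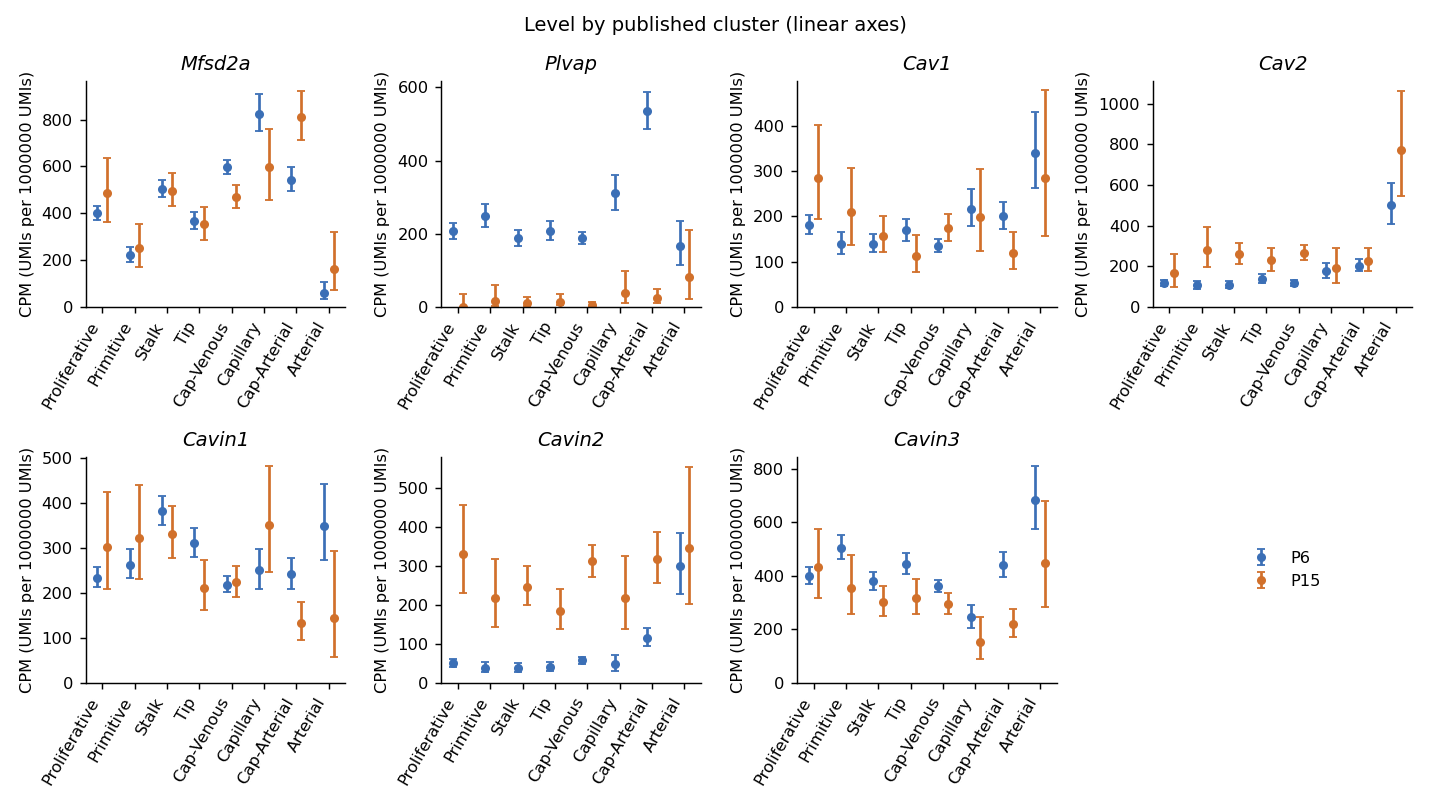
CPM (linear axes, each starting at 0) of each gene in the 8 published clusters with at least 10 labelled cells at both ages, P6 in blue and P15 in orange, with exact Poisson 95% intervals. *Plvap* reaches 536 in P6 Cap-Arterial cells, *Mfsd2a* is lowest in Arterial cells at 60.7 (P6) and 163 (P15), and *Cav2* is highest there at 501 and 774.

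Cells with both genes were counted, since Mfsd2a and Plvap mark opposite states of the barrier. At P6 553 of 1424 cells (38.8%) held UMIs of both, 552 of *Mfsd2a* alone, 192 of *Plvap* alone and 127 of neither. The product of the single shares was 40.6%. *Plvap* was detected in 553 of the 1105 P6 cells with *Mfsd2a* (47.1 to 53.0%) and in 60.2% of P6 cells without it (54.6 to 65.6%), and at equal depth in 37.1% and 43.5%, whose intervals overlap. At P15 66 of 1644 cells (4.01%) held both. Among UMIs of the pair, *Plvap* made up 33.1% at P6 and 2.70% at P15, and at P6 its part ran from 24% in Cap-Venous to 52.8% in Primitive and 73.3% in Arterial cells. Across cells at equal depth, Pearson's r between log-scaled levels of the 2 genes was −0.109 in 1245 P6 cells and 0.017 in 1163 P15 cells.

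*Cav1* and *Cav2* encode caveolins, membrane proteins of the caveolar coat, of which Cav1 is required for endothelial caveolae and Cav2 joins it in hetero-oligomers. *Cav1* was detected at 160.3 CPM at P6 (151 to 169.6) and 169 at P15 (159.7 to 179), a ratio of 1.05 (0.973 to 1.14), which became 0.948 when mitochondrial and ribosomal protein UMIs were left out. *Cav2* was detected at 139 (131 to 148) and 286 (274 to 299), 2.06-fold higher at P15 (1.91 to 2.22), in 44.1% and 61.9% of cells. Among P15 barcodes with pericyte markers 6 of 13 held a *Cav2* UMI (46.2%, 19.2 to 74.9%), an interval that includes the P15 share, and among P6 neural barcodes 1 of 21 did. *Cav2* was just past the 2-fold mark, and lay below it in 5 alternatives, at 1.90-fold over labelled cells, 1.85-fold without mitochondrial and ribosomal protein UMIs, 1.94-fold under median-of-ratios scaling, 1.93-fold at equal depth and 1.63-fold with equal weight for clusters. Of the UMIs of both caveolins, *Cav2* made up 46.5% at P6 (44.4 to 48.5%) and 62.9% at P15 (61.2 to 64.5%).

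At P6 both caveolins were highest in Arterial cells. *Cav1* stood at 339 CPM there, 2.13-fold above the other labelled cells (1.64 to 2.72), and *Cav2* at 501, 3.94-fold above (3.18 to 4.84). *Cav2* also exceeded the next cluster, Cap-Arterial, by 2.46-fold (1.90 to 3.18), and was found in 34 of 40 Arterial cells. Outside Arterial cells the P6 levels ran from 135 to 216 for *Cav1* and from 98.4 to 203 for *Cav2*, with no step between neighbours beyond counting error. Against all other labelled cells, however, *Cav2* was higher beyond counting error in Cap-Arterial (1.58-fold, 1.34 to 1.86) and Capillary cells (1.33-fold, 1.06 to 1.64), and lower in Proliferative, Cap-Venous, Stalk and Primitive cells, at ratios of 0.770 to 0.840. At P15 *Cav2* was again highest in Arterial cells, at 774 from 38 UMIs in 11 cells. *Cav1* at P15 was level between Arterial (285) and Proliferative cells (284). Its ratio in Arterial to other labelled cells was within counting error (1.75, 0.946 to 2.98), from 14 UMIs in 11 cells. With predicted labels this ratio was 2.57 (1.95 to 3.32), beyond counting error. Within clusters *Cav2* was higher at P15 in 8 of 8, beyond counting error in 5, with the largest ratios in Primitive (2.66, 1.76 to 3.95), Stalk (2.37, 1.83 to 3.06) and Cap-Venous cells (2.28, 1.90 to 2.73). In Capillary and Cap-Arterial cells the ratios were 1.07 and 1.12, within counting error. With labels predicted for the P15 cells that had none, the Cap-Arterial ratio of *Cav2* was 1.61 (1.35 to 1.94), beyond counting error. The Arterial ratio was then within it, at 1.24 (0.925 to 1.67). *Cav1* was higher in 4 clusters and lower in 4, at 1.57 in Proliferative cells (1.05 to 2.28) and 0.595 in Cap-Arterial cells (0.403 to 0.858). The P15 Proliferative level of *Cav1* rests on 31 UMIs in 14 cells, with 12 UMIs in a single cell. At equal depth 35.9% of Proliferative cells held a *Cav1* UMI at P6 and 33.3% at P15.

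**Figure D3:**
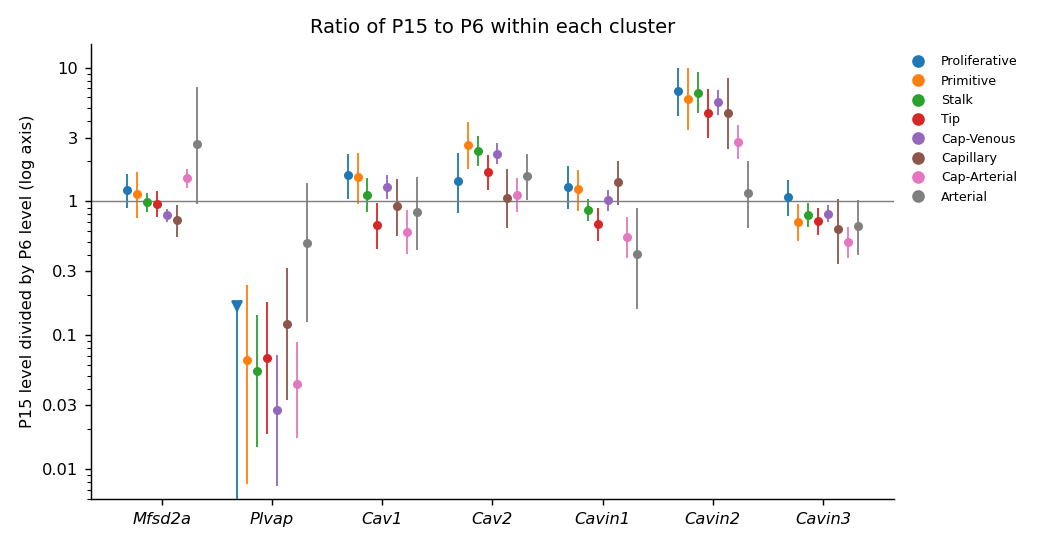
Level at P15 divided by the level at P6 (log axis) for each gene within each of 8 clusters, with exact conditional binomial 95% intervals. The grey line is a ratio of 1, and the triangle is the upper bound for *Plvap* in Proliferative cells, which held 0 UMIs at P15. *Cavin2* lies above 1 in 8 clusters and *Plvap* below 1 in 8, and *Mfsd2a*, *Cav1* and *Cavin1* are split 4 and 4.

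The cavins coat the caveola from the cytosol. Cavin1 is needed for caveolae to form, Cavin2 takes part in shaping the membrane, and Cavin3 links caveolae to signalling. *Cavin2* was detected at 60.8 CPM at P6 (55.4 to 66.6) and 280.3 at P15 (268 to 293), 4.61-fold higher (4.17 to 5.11), and stood 131st from the highest ratio among the 10972 genes. The share of cells with a UMI was 22.5% at P6 and 58.5% at P15, or 14.9% and 53.7% at equal depth, beside 0 of 21 P6 neural barcodes and 1 of 13 P15 barcodes with pericyte markers (7.69%). The 5% of cells with the most *Cavin2* held 41.5% of its UMIs at P6 and 23.7% at P15.

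At P6 *Cavin2* was highest at the arterial end, at 299 CPM in Arterial cells (227 to 385) and 115 in Cap-Arterial cells, against 37.2 to 70.3 in the other 7 clusters. The ratio of Arterial to other labelled cells was 5.55 (4.17 to 7.28). At P15 the 8 clusters lay closer together, from 183 in Tip to 346 in Arterial cells, and Arterial cells were within counting error of the rest (1.27-fold, 0.735 to 2.05). Within clusters *Cavin2* was higher at P15 in 8 of 8, beyond counting error in 7, from 2.76-fold in Cap-Arterial cells (2.06 to 3.70) to 6.66-fold in Proliferative cells (4.37 to 9.95). Arterial cells were the exception, at 299 and 346 (ratio 1.16, 0.634 to 2.02). With labels predicted for the P15 cells that had none, the Arterial ratio was 1.53 (1.06 to 2.21). The difference between clusters was not tested.

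*Cavin1* was detected at 262 CPM at P6 and 222 at P15, a ratio of 0.847 (0.793 to 0.905), and *Cavin3* at 383 and 295, a ratio of 0.770 (0.728 to 0.814). Both ratios were under the median of all genes, 1.09, and under 2-fold. *Cavin3* was lower at P15 in 7 of 8 clusters, beyond counting error in 5, with the lowest ratio in Cap-Arterial cells (0.495, 0.375 to 0.645). *Cavin1* was split, and was lower beyond counting error in Tip (0.679), Cap-Arterial (0.547) and Arterial cells (0.408). By cluster, *Cavin3* was highest at P6 in Arterial cells (683 CPM) and lowest in Capillary cells (245), whereas *Cavin1* was highest in Stalk cells (382), 1.52-fold above the other labelled cells (1.38 to 1.67), and lowest in Cap-Venous cells (218). At P15 *Cavin1* stood at 331 in Stalk cells and 132 in Cap-Arterial cells. Among 13 P15 barcodes with pericyte markers, *Cavin1* stood at 360.3 CPM and *Cavin3* at 432, and the ratios without cells holding at least 2 pericyte markers were 0.846 and 0.779.

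As a share of cavin UMIs, *Cavin2* made up 8.61% at P6 (7.87 to 9.39%) and 35.1% at P15 (33.9 to 36.4%), while *Cavin3* went from 54.3% to 37.0% and *Cavin1* from 37.1% to 27.8%. The *Cavin2* share was higher at P15 in each of the 8 clusters, with intervals apart in 7. In Arterial cells it was 22.4% (17.5 to 28.0%) and 37.0% (23.2 to 52.5%), which overlap. UMIs were not corrected for transcript length or capture, so these shares are read between cells and not as the composition of the coat.

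**Figure D4:**
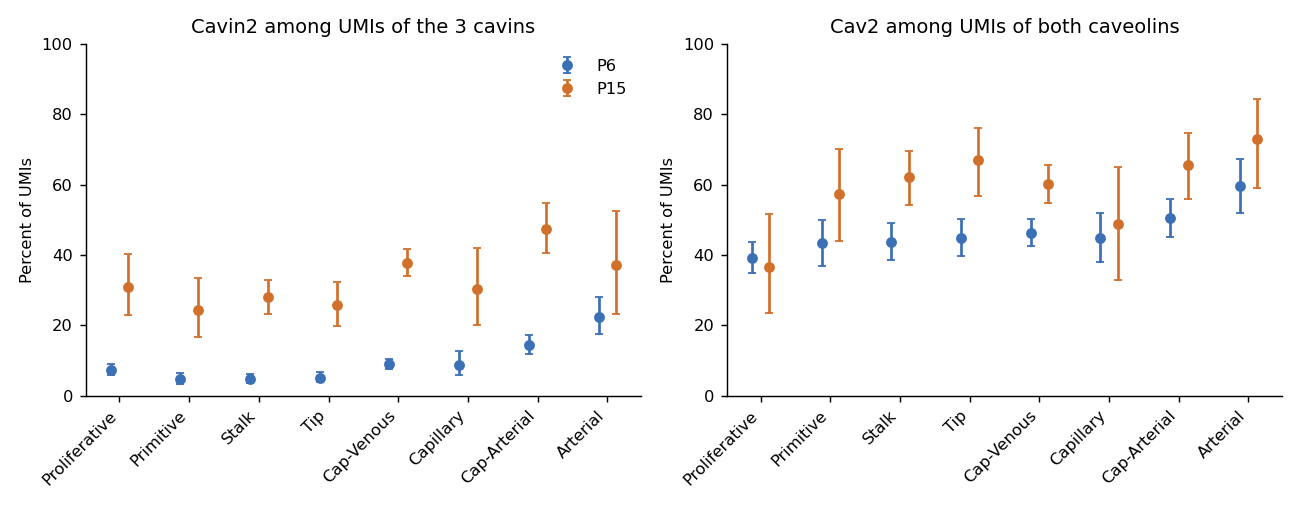
Share of *Cavin2* among the UMIs of the 3 cavins (left) and of *Cav2* among the UMIs of both caveolins (right), in percent, by cluster at P6 (blue) and P15 (orange), with Clopper-Pearson 95% intervals. The *Cavin2* share is 4.61 to 22.4% at P6 and 24.3 to 47.5% at P15.

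Set against the other labelled P6 cells, Arterial cells had 3 of 7 members at least 2-fold higher (*Cav1*, *Cav2* and *Cavin2*), where 7.82% of 5871 genes were, and 1 of 7 at least 2-fold lower (*Mfsd2a*), where 10.3% were. *Cav1* lay under 2-fold, at 1.95, without mitochondrial and ribosomal protein UMIs, which left 2 of 7, and lay at the 2-fold mark at equal depth (interval 1.35 to 2.87). *Cavin3* was 1.73-fold higher there (1.44 to 2.05), *Cavin1* 1.30-fold (1.01 to 1.65), and *Plvap* stood at a ratio of 0.705 (0.484 to 0.992). The P6 Arterial cluster had 40 cells with 197565 UMIs.

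**Figure D5:**
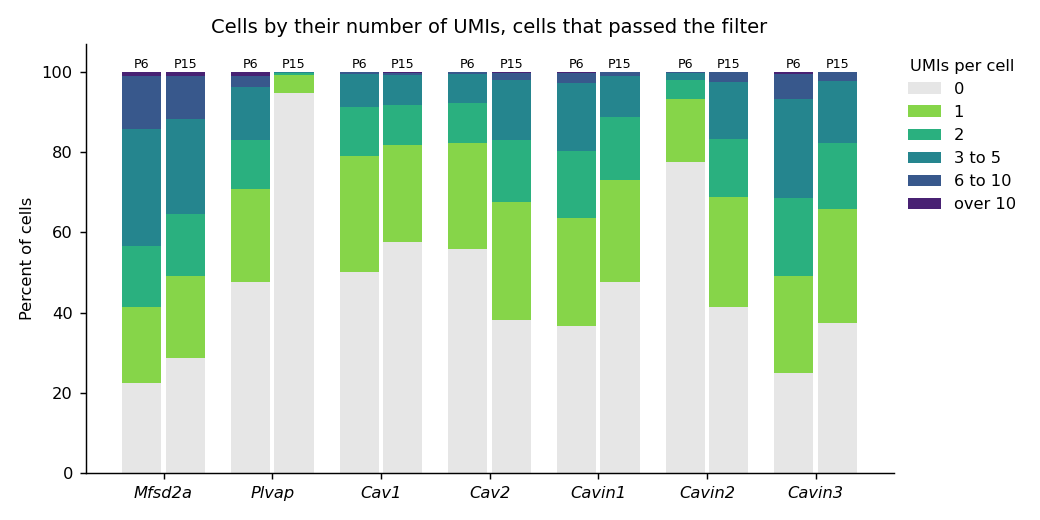
Percent of cells (from 0 to 100) by their number of UMIs of each gene, for the cells that passed the filter at P6 and P15. Grey is 0 UMIs. Cells without *Plvap* make up 47.7% at P6 and 94.7% at P15, and cells without *Cavin2* 77.5% and 41.5%.

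Within single cells the members were only weakly related. Over all pairs at equal depth, the highest Pearson's r was 0.186 at P6 and 0.183 at P15, both between *Cav1* and *Cav2*, and the lowest −0.187 and −0.164, both between *Mfsd2a* and *Cavin3*. Cells of 1 library are not replicates, and counts were sparse, so these values are a description. Across the 16 combinations of cluster and age, *Cav2* and *Cavin2* varied together (r = 0.764). *Plvap* and *Cavin2* varied in opposite directions (r = −0.738). These points share 2 libraries, so the difference between the ages enters r.

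By the same measure, among 6595 genes, the profile of *Mfsd2a* was closest to *Slc3a2* (r = 0.900) and *Slc7a5* (r = 0.887), which form an amino acid carrier, and to *Lrp8* (r = 0.883). *Plvap* was closest to *Sox18* (r = 0.910), a transcription factor of the endothelium, at 466 CPM at P6 and 126 at P15. Next came *Tmem176a* (r = 0.908) and *Gm16200* (r = 0.900), the latter with 729 UMIs at P6 and 1 at P15. In this order, the ratios of P15 to P6 for these genes were 0.269, 0.426 and 0.00142. The closest to *Cavin2* were *Ly6e* (r = 0.970), *Slco1a4* (r = 0.954) and *Pir* (r = 0.954), with ratios of 2.59, 28.4 and 3.77. *Slco1a4*, an organic anion carrier of the barrier, stood at 36.2 CPM at P6 and 1027 at P15. Profiles held the clusters of both ages, so differences between the ages enter r as well as differences between clusters. How much of r came from either was not tested. *Cav2* was closest to *Sdhaf4* (r = 0.940), *Mgp* (r = 0.924) and *Ctsd* (r = 0.924). For *Cav1* the 3 closest lay between 0.795 and 0.812 (*Tmem109*, *Slmap* and *Ap2b1*) and for *Cavin3* between 0.844 and 0.875 (*Nudt4*, *Timm10* and *Clta*). *Cavin1* was closest to *Ankrd13c* (r = 0.794) and *Zfp672* (r = 0.755). *Clta*, a clathrin light chain, went with *Cavin3* at 359 CPM at P6 and 291 at P15.

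Other genes of caveolae and vesicle traffic passed 2-fold between the ages about as often as genes in general. Of 43 genes in 4 lists, 41 had a row in both libraries and 36 had at least 50 UMIs. Of these 36, 2 were at least 2-fold higher at P15, where 7.25% of all genes compared were, and 2 were lower, where 5.79% were, so these counts say nothing particular about the lists. Their median ratio was 1.18 against 1.09 for all genes. Among the lower genes was *Flot2*, a flotillin of membrane microdomains, at 41 and 11 UMIs (ratio 0.278, 0.129 to 0.551). The higher ones belonged to receptor-mediated uptake. *Fcgrt*, the neonatal Fc receptor that carries and recycles immunoglobulin G, stood at 92.6 CPM at P6 and 330.1 at P15 (3.57-fold, 3.28 to 3.88), and *Igf1r*, the receptor for insulin-like growth factor 1, at 41.7 and 108 (2.59-fold, 2.27 to 2.96).

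Among 11 caveola accessory genes, 0 were at least 2-fold higher and 1 (*Flot2*) lower. *Ehd2*, an ATPase at the caveolar neck, had a ratio of 0.979 (0.904 to 1.06), *Ehd4* 1.01 and *Pacsin2*, a membrane-bending protein of caveolae, 1.35 (1.16 to 1.57). *Dnm3* (1.78-fold, 1.55 to 2.05), a dynamin that cuts vesicles from the membrane, and *Nos3* (1.66-fold, 1.47 to 1.88), the endothelial nitric oxide synthase that Cav1 binds, were the highest of this list. The transferrin receptor gene *Tfrc* was 1.42-fold higher (1.31 to 1.54). Of 9 clathrin coat genes, 0 were past 2-fold, from *Ap2s1* at 0.758 (0.706 to 0.813) to *Cltb* at 1.93 (1.77 to 2.10), with *Clta* at 0.810 (0.765 to 0.857). Of 8 genes of vesicle fusion, 0 were past 2-fold, from *Vamp5* at 0.872 to *Napa* and *Vamp8* at 1.44.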

How the data were processed

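Single-cell suspensions of P6 and P15 retinas, sorted for CD31 and against CD45, gave 1 library per age. The authors deposited raw counts of UMIs per Ensembl gene and cell barcode, without normalization. The processing notes of the submitters name Seurat 3.0 and the mm10 genome, and the aligner and counter of these counts were not given in the sources used here. Gene symbols were matched by Ensembl identifier (22695 of 22734 at P6, 21745 of 21785 at P15), and 2017 and 1692 UMIs without a symbol were left out. Cluster labels were those of the study's source data, in a shortened copy that held all P6 labels and the first 438 of P15. The upper limit of 3500 in the study's exclusion criteria was read as genes per cell.

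Levels are the UMIs of a gene in a set of cells over the total of that set. Levels have exact Poisson, ratios exact conditional binomial and shares Clopper-Pearson intervals (95%). A count of 0 was bounded with 3 counts. Genes with at least 50 UMIs over both libraries (200 over labelled cells between clusters) were called at 2-fold. Profiles used log2 levels in CPM, with a pseudocount of 10, over clusters with at least 10 cells at both ages. Named genes were the 7 members, 43 related genes, the 3 closest profiles of each member and cell type markers. Values of 2 genes that this rule names are not reported here. Neural and pericyte barcodes held at least 3 such markers and at most 1 endothelial marker. No doublet caller was run, and barcodes with both *Xist* and Y-linked UMIs (25 and 24) were left out in an alternative. For P15 cells with no label, 1 was predicted from 15 neighbours without the member genes. Alternatives covered cells, scaling, depth, labels and cluster weights. With 1 library per age no p-value was computed. The members, lists and settings were chosen with earlier results of these data known. Ratio steps were tested on simulated data first. Python 3.11.15, numpy 2.4.6, pandas 2.3.3, scipy 1.17.1, scikit-learn 1.9.0 and matplotlib 3.10.9 were used.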

Additional observations from a re-analysis of the deposited data

Results flagged for a closer look

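A pair of genes differed in direction between the ages in how a cluster related to the other labelled cells, each beyond counting error in the values reported. These differences were not tested, since there was 1 library per age. *Plvap* in Arterial cells stood at 0.705 of the other cells at P6 (0.484 to 0.992) and at 6.82 at P15 (1.72 to 19.7). Over labelled cells that pass the filter the P6 ratio was 0.724 (0.494 to 1.03), within counting error. The P15 value rests on 4 UMIs in 4 of 11 cells, and with predicted labels it was 3.08 (1.11 to 6.94), from 6 UMIs in 33 cells. Cells labelled by the study kept their label there, so the 33 cells include those 11 and their 4 UMIs, and the 2 values are not independent. *Cav1* in Cap-Arterial cells stood at 1.25 at P6 (1.06 to 1.47) and at 0.685 at P15 (0.471 to 0.969), with 0.778 (0.661 to 0.911) under predicted labels and 0.729 (0.432 to 1.17) at equal depth.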

How the results depend on the processing

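Ratios whose reported interval excluded 1 kept their direction in each alternative run, and *Plvap*, *Cavin2* and *Cavin3* kept their direction between the libraries in each setting run. *Mfsd2a*, whose interval included 1, turned with the setting, beyond counting error both at 1.20 (1.16 to 1.25) and at 0.917 (0.877 to 0.960) below. Over every barcode the ratio of P15 to P6 was 1.20 for *Mfsd2a* and 0.711 for *Cavin3*, and without the upper limit on genes per cell 1.16 and 0.706. Over labelled cells *Cav2* stood at 1.90. Without mitochondrial and ribosomal protein UMIs the ratios were 0.917 for *Mfsd2a*, 0.948 for *Cav1*, 1.85 for *Cav2*, 0.762 for *Cavin1*, 4.15 for *Cavin2* and 0.693 for *Cavin3*. Median-of-ratios scaling gave 0.960 for *Mfsd2a* and 0.725 for *Cavin3*, and thinning to 3000 UMIs per cell 0.774 for *Cavin1*. Equal weight for clusters gave 0.0918 for *Plvap*, 1.63 for *Cav2*, 3.18 for *Cavin2* and 0.727 for *Cavin3*. Related genes at least 2-fold lower at P15 numbered 1 over labelled cells and 1 after thinning, against 2. *Cav2* was lower at P15 in 1 cluster, against 0, with predicted labels, after thinning and without mitochondrial and ribosomal protein UMIs. Thinning lowered the shares of cells with a UMI at P6 and P15 to 65.3% and 68.3% for *Mfsd2a*, 39.4% and 3.87% for *Plvap*, 37.3% and 35.6% for *Cav1*, 32.5% and 52.8% for *Cav2*, 50% and 43.5% for *Cavin1*, 14.9% and 53.7% for *Cavin2*, and 62.4% and 55.5% for *Cavin3*. Cells with both *Mfsd2a* and *Plvap* made up 24.3% at P6 and 2.84% at P15 after thinning, and 42.2% of labelled P6 cells. The cause of these shifts was not tested, except that thinning keeps fewer UMIs per cell by construction. Settings without the 5 barcodes highest in a gene and with fewer than 2 pericyte markers were added after seeing the data and moved no library ratio past its interval. Predicted labels were right for 338 of 436 labelled P15 cells. Clusters under 10 cells in a library got no value, so within-cluster ratios covered 7 of 8 clusters after thinning (no Arterial) and over labelled cells that pass the filter (no Proliferative). No paired analysis was possible because each age had 1 library. Depth limits P15 *Plvap* (105 UMIs) and the P15 Venous (2 cells), Arterial (11) and Proliferative (14) clusters.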
